A study of Homo sapiens with 24 samples.

Results

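The change in gene expression after knockdown of SIRT1 was compared between hormone-stripped serum and full serum in LNCaP cells, an established hormone-sensitive prostate cancer line. For each gene, the knockdown change in full serum was subtracted from the knockdown change in stripped serum. The comparison rests on 12 of the 24 libraries, 3 in each of 4 groups, and all 15345 genes that passed a low-count filter were tested. The knockdown cells in stripped serum, called 10 in the labels, and their non-targeting control (NTC) cells spent 48 h in serum with androgens, 24 h in charcoal-stripped serum and 24 h more in stripped serum with vehicle. The knockdown cells in full serum, called shSIRT1, and their NTC cells grew in fetal bovine serum, which holds androgens. Cells of every group had received lentivirus at a multiplicity of infection of 10, with a short hairpin against SIRT1 or a scrambled one. All were selected with puromycin at 1 µg/ml and then kept as stable clones at 0.5 µg/ml. The labels give no word on whether 10 and shSIRT1 are the same hairpin or clone. Serum, run, read depth, counting settings, the size of the SIRT1 fall and possibly hairpin or clone therefore differ together between the 2 sets. They cannot be told apart, and no level was tested between the sets.

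SIRT1 is a deacetylase that uses NAD to remove acetyl groups from histones and from transcription factors, among them p53, FOXO proteins and the RelA subunit of NF-κB. Charcoal treatment takes steroid hormones out of serum, and without androgens the androgen-induced genes of LNCaP cells fall and the cells divide more slowly. Cell cycle genes are read in 2 waves: G1/S genes under E2F factors, and G2/M genes under MuvB complexes, which can repress or activate them through a short promoter element, the cell cycle genes homology region (CHR), often near CCAAT boxes. The comparison asks which changes after SIRT1 knockdown differ between the stripped and full serum sets. It cannot assign such a difference to the serum.

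Libraries held 30.1 to 32.9 M counts in knockdown 10 cells and 28 to 32.3 M in their NTC cells, 11.9 to 12.4 M in shSIRT1 cells and 12.7 to 14.2 M in theirs. Levels below are CPM (library counts scaled to a common total), and changes are log2 fold changes of knockdown over NTC from edgeR, with Benjamini-Hochberg adjusted p. In the full serum set the libraries numbered 1 and 2 differed little, and both libraries numbered 3 stood apart. The chi-square divided by the number of genes was 1.60 between libraries 1 and 2 in shSIRT1 cells and 1.55 in NTC cells. Full serum pairs with a library 3 had 8.89 to 9.39. Pairs within the stripped serum groups had 4.28 to 20.8, but this measure can grow with read depth, which was higher there. For some calls and counts that turn on the libraries numbered 3, values without those libraries are also given. Other counts below move without them too, with no such value beside them. The replicate block named below is the same fit with the number of each library as an added term. LNCaP markers were present in all 12 libraries, while KRT5, TP63 and GSTP1, which mark basal cells or other prostate lines, had at most 1 count in any of them. DCN, PTPRC and CDH5 had at most 3, but COL1A1 had 130 to 982 counts, VIM 94 to 1757, ACTA2 51 to 163 and PECAM1 2 to 78. The difference was called for LAMB3 of the basal markers (1.84, adjusted p = 0.0141). Among fibroblast markers it was called for ACTA2 (1.45), COL3A1 (1.00) and PDGFRB (-1.96). Summed markers of 14 basal, 13 fibroblast, and 14 leukocyte or endothelial genes lay between 11.8 and 60.6 CPM in every library. The fibroblast sum was lower in shSIRT1 libraries (21.1 to 27.97 CPM) than in their NTC libraries (28.9 to 32.2 CPM), and overlapped in stripped serum (32.0 to 41.7 CPM in knockdown 10, 31.2 to 40.7 CPM in NTC). The basal sum was 51.7 to 60.6 CPM in knockdown 10 and 48.7 to 51.2 CPM in NTC libraries in stripped serum. The leukocyte and endothelial sum was also apart there, at 11.8 to 13.5 CPM in knockdown 10 and 14.4 to 17.0 CPM in NTC libraries. Both sums overlapped between the groups in full serum, and the part of such markers in the results below was not tested.

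SIRT1 itself, the gene that the hairpins target, fell in both sets. Its level was 17.4, 21.6 and 19.5 CPM in knockdown 10 libraries, against 55.5, 59.2 and 57.3 CPM in NTC libraries in stripped serum. In full serum it was 8.41, 8.68 and 7.15 CPM in shSIRT1 libraries, against 40.1, 38 and 36.8 CPM in NTC libraries. The groups did not overlap in either set. The log2 change was -1.51 in stripped serum (SE 0.08, adjusted p = 3.16e-09) and -2.24 in full serum (SE 0.10, adjusted p = 1.86e-09). Its fall was therefore the smaller one in stripped serum, by 0.73 on the log2 scale (95% interval 0.46 to 0.99, adjusted p = 0.00133). SIRT2, a mainly cytosolic relative, was 105, 101 and 104 CPM in knockdown 10 libraries, against 73.9, 76.2 and 77.5 CPM in NTC. Its difference of changes was 0.47 (adjusted p = 0.0038), and its change in full serum did not pass (log2 0.02, adjusted p = 0.931).

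The knockdown change differed between the stripped and full serum sets for 2104 genes, 13.7% of those tested: it was higher in stripped serum for 1142 genes (7.44%) and lower for 962 (6.27%). Within stripped serum 2712 genes were higher in knockdown cells (17.7%) and 2172 lower (14.2%). Within full serum 198 were higher (1.29%) and 511 lower (3.33%). These 6 shares are the background for the counts below that come from the same fit. The median change over all genes tested was 0.03 in stripped serum, 0.0028 in full serum and 0.03 for the difference. With the replicate block there were 4041 differences, 2090 of the 2104 among them, and 1993 changes in full serum in place of 709. Of the 15345 genes the block called 2277 differences higher and 1764 lower, 3980 and 3058 changes in stripped serum, and 775 and 1218 in full serum. The block counts of gene lists below have these as their background. Without both full serum libraries 3 the counts were 2605 differences and 1050 changes in full serum. Demanding a change of over 1.2-fold left 708 differences, and summing full serum libraries 1 and 2 left 1131. With scaling factors computed within each set, 869 were higher and 1165 lower, so that the split between the directions depends on the scaling.

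By their calls in the 2 sera, the 2104 genes fell into 5 kinds. Most, 1686 (80.1%), changed in stripped serum and did not pass in full serum, 861 with a positive difference and 825 with a negative one. Another 150 (7.13%) changed in full serum without passing in stripped serum. In 64 genes (3.04%) the knockdown change was called in both sera with opposite signs, 54 of them higher in stripped and lower in full serum. A further 57 (2.71%) changed the same way by different amounts, and 147 (6.99%) passed in neither serum taken alone. With the replicate block 2867 changed in stripped serum alone, 381 in full serum alone and 230 the same way, and with full serum libraries 1 and 2 summed these were 995, 46 and 18. The genes changed in full serum alone were 255 without both full serum libraries 3, 71 without NTC library 1, 78 without NTC library 2, 80 without shSIRT1 library 1, 86 without shSIRT1 library 2 and 243 without NTC library 3. Those changed the same way were 29 to 31 when any of full serum libraries 1 and 2 was left out, and 38 without knockdown 10 library 3 or stripped serum NTC library 3. Under the 1.2-fold minimum the 3 counts were 548, 37 and 9. The count of opposite genes moved widely, to 345 with the replicate block, 171 without both full serum libraries 3, 7 with full serum libraries 1 and 2 summed and 2 under the 1.2-fold minimum. It was 28 without shSIRT1 library 1, 22 without shSIRT1 library 2, 20 without full serum NTC library 1 and 22 without NTC library 2, but 117 without shSIRT1 library 3 and 143 without NTC library 3. Leaving out single stripped serum libraries gave 40 to 61, the lowest without knockdown 10 library 3.

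Changes called in stripped serum made up 31.8% of the genes tested, and those called in full serum 4.62%. Those called in both sera numbered 421, which is 59.4% of those called in full serum and 8.62% of those called in stripped serum. Of these, 357 had the same sign (84.8%), 253 lower and 104 higher in knockdown cells. With the replicate block 1328 changes were called in both sera, 983 with the same sign, and with full serum libraries 1 and 2 summed 119. Without both full serum libraries 3 there were 626, of which 455 had the same sign. The count was 194 without full serum NTC library 1, 181 without NTC library 2, 215 without shSIRT1 library 1, 221 without shSIRT1 library 2 and 84 under the 1.2-fold minimum. For 179 of them the 95% interval of the difference lay within 1.5-fold either way, and these are called shared below. The 2 arms have no library in common. Across all genes their log2 changes had a Pearson correlation of 0.27, a description over genes that are not independent.

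**Figure D1:**
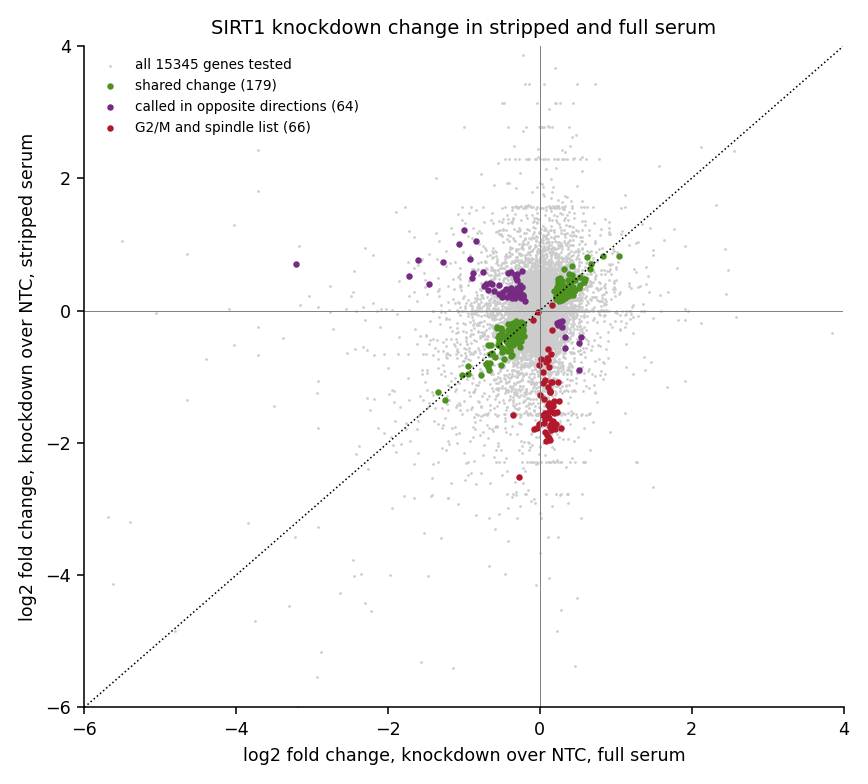
Log2 fold change of knockdown over NTC in full serum (x axis) and in stripped serum (y axis) for the 15345 genes tested, with the 66 G2/M and spindle genes, the 64 genes called in opposite directions and the 179 shared genes marked; the dotted line is equality and 27 genes lie outside the axes. Shared genes follow the dotted line, opposite genes lie in the upper left and lower right quadrants, and most G2/M genes lie near 0 in full serum and near the list's median of -1.53 in stripped serum.

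The lowest median difference of any gene list was in G2/M and spindle genes, which drive chromosome segregation and cell division. Of 66 tested, 62 had a lower knockdown change in stripped serum than in full serum and none a higher one, with a median difference of -1.62. In stripped serum alone, 62 fell in knockdown cells (median -1.53). In full serum none passed (median 0.12), although the replicate block called 63 differences and, within full serum, 4 genes higher and 1 lower. The count of differences was 54 to 63 over all 28 alternatives, and 63 without both full serum libraries 3. The 4 genes that did not pass were NCAPD2, BUB3, CDC25B and SPC25, with differences of -0.45, -0.07, -0.05 and 0.01 (adjusted p = 0.0648, 0.678, 0.945 and 1.00), of which NCAPD2 passed with the replicate block (adjusted p = 4.20e-05) and without both full serum libraries 3 (0.000642). Summed over the list, the level was 716, 702 and 744 CPM in knockdown 10 libraries, against 1324, 1649 and 1649.6 CPM in NTC libraries in stripped serum. Full serum levels were 7292, 7356 and 5178 CPM in shSIRT1 libraries, against 6540.1, 6641 and 5290.1 CPM in NTC libraries. The 2 stripped serum groups were apart, while in full serum they overlapped and library 3 was the lowest of each group. In bulk RNA, fewer cells in division and less of this RNA per cell cannot be told apart.

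**Figure D2:**
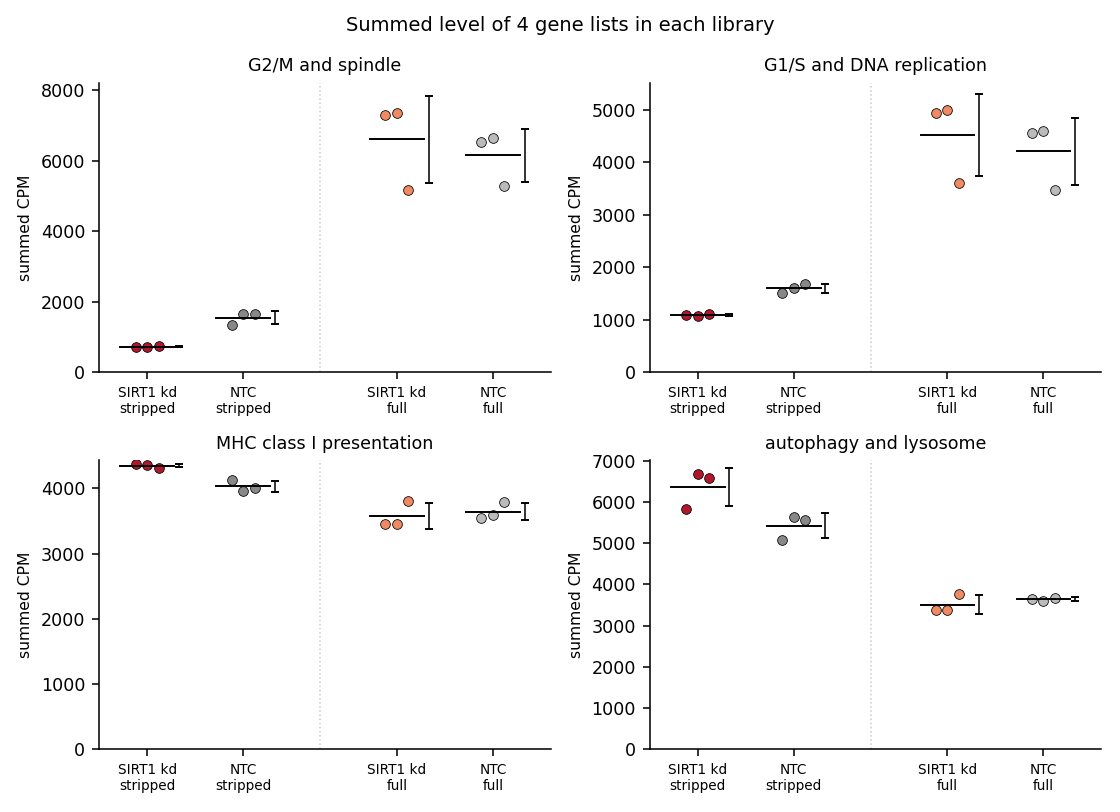
Summed CPM of 4 gene lists in each library, with knockdown to the left of NTC and stripped serum to the left of full serum; points are libraries, horizontal bars means and vertical bars SD (n = 3). Knockdown 10 libraries are lower than their NTC libraries for G2/M and G1/S genes and higher for MHC class I and lysosome genes, and in full serum the library numbered 3 sits low in both cell cycle panels.

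Single G2/M genes showed the same pattern. KIF4A, a chromosome-associated kinesin, was 3.83, 3.87 and 4.21 CPM in knockdown 10 libraries, against 11.2, 13.9 and 14.2 CPM in NTC libraries in stripped serum. Its full serum levels overlapped, at 70.7, 74.2 and 53.7 CPM in shSIRT1 and 58.4, 62.9 and 56.3 CPM in NTC libraries. The difference was -1.84 (SE 0.17, adjusted p = 2.01e-05). TTK, the spindle checkpoint kinase, had a log2 change of -1.72 in stripped serum and 0.22 in full serum (difference -1.93, adjusted p = 3.43e-05). BUB1, another checkpoint kinase, had a difference of -1.65 (adjusted p = 4.15e-05). KIF14, a kinesin of cytokinesis, had a log2 change of -2.52 in stripped serum (adjusted p = 2.31e-06), against -0.28 in full serum (adjusted p = 0.372). Its difference of -2.25 (adjusted p = 0.000208) was among the 6 lowest of genes called in stripped serum alone that had a mean of at least 1 on the log2 CPM scale. MKI67, which encodes the proliferation antigen Ki-67, was 12.5, 13 and 15 CPM in knockdown 10 libraries, against 39.1, 46.9 and 58.6 CPM in NTC, and its difference was -1.99 (adjusted p = 0.00169). In full serum MKI67 was 306, 323 and 204 CPM in shSIRT1 and 256, 267 and 204 CPM in NTC libraries, which did not pass (adjusted p = 0.647, or 0.0346 with the replicate block).

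The promoters of 3 of these genes are shown because they carry both elements by which G2/M genes are known to be read. They are the 3 with the lowest adjusted p among the searched G2/M genes called lower whose last 150 bases before the start hold a CHR (TTTGAA) and a CCAAT box. Genes on a single chromosome were left out of this search. Of 53 called G2/M genes with a promoter in the table, 18 were found to hold both. Any on the chromosome left out still count among the 53, so that 18 is a minimum. Each sequence is from RefSeq on GRCh38.p14, is read 5′ to 3′ on the strand of the gene and ends at the base before the transcription start. Capitals mark a CHR or a CCAAT box on either strand.
KIF4A (chrX:70289954-70290103, plus strand): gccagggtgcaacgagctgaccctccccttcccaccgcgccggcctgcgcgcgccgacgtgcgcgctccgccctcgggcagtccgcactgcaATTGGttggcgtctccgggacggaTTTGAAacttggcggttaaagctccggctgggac
CCNB2 (chr15:59104996-59105145, plus strand): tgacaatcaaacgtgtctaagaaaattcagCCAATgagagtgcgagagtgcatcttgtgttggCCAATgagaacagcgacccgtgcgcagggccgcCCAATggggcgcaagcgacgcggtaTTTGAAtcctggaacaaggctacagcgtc
CKAP2L (chr2:112764610-112764759, minus strand): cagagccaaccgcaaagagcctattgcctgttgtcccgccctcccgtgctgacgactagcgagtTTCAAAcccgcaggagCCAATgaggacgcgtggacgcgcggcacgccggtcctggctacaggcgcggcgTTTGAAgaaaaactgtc

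KIF4A and CCNB2 hold 1 CHR each and CKAP2L 2, while CCNB2 holds 3 CCAAT boxes and each of the others 1. CCNB2, cyclin B2, was 6.59, 4.96 and 6.34 CPM in knockdown 10 libraries, against 14.3, 16.9 and 16.5 CPM in NTC, and had a difference of -1.62 (adjusted p = 6.56e-05). CKAP2L, a spindle protein, was 2.98, 2.94 and 3.42 CPM in knockdown 10 libraries, against 7.04, 10.1 and 9.07 CPM in NTC, with a difference of -1.61 (adjusted p = 0.000406).

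Promoter windows of 300 bases, 250 before the start and 50 after, could be matched for 11867 of the 15345 genes. Letters searched on both strands were TTTGAA for the CHR, CCAAT for the CCAAT box, and TTTCGCGC, TTTGGCGC, TTTCCCGC or TTTGCCGC for E2F. No searched motif lies within another. A CHR stood in 67.9% of 56 G2/M windows, against 9.97% of all windows, and a CCAAT box in 64.3%, against 36.9%. Of 42 G1/S windows, 2.38% held a CHR and 54.8% an E2F match, against 5.12% of all windows with an E2F match. Among genes with a lower knockdown change in stripped serum 18.7% of 775 windows held a CHR, compared with 7.09% of 917 windows of genes with a higher one. Counting only the 250 bases before the start, the CHR share of G2/M windows was 48.2%, against 8.71% of all windows. These are matches of letters, not binding sites.

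G1/S and DNA replication genes moved the same way by less. Of 50, 31 had a lower knockdown change in stripped serum and none a higher one (median difference -0.77). In stripped serum 39 fell (median -0.65), and in full serum none passed (median 0.11). The count of lower differences was 20 to 46 over all alternatives. With the replicate block 1 difference was higher, and within full serum 10 genes were higher in knockdown cells. Summed, the list was 1085, 1069.5 and 1113 CPM in knockdown 10 libraries, against 1512, 1609.9 and 1681 CPM in NTC libraries in stripped serum. The full serum levels were 4952, 4992 and 3615 CPM in shSIRT1 libraries, against 4569, 4594 and 3475 CPM in NTC libraries. DTL, the adaptor of the ligase that degrades the licensing factor CDT1, had a difference of -2.05 (adjusted p = 0.000131). CDC45, part of the replicative helicase, had one of -1.67 (adjusted p = 0.000465), and MCM3, a helicase subunit, one of -0.93 (adjusted p = 0.000686). UHRF1, which guides maintenance DNA methylation at replication forks, was 4.41, 4.33 and 4.35 CPM in knockdown 10 libraries, against 17, 18.2 and 21.4 CPM in NTC. Its difference was -2.22 (adjusted p = 0.000715).

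Repair genes of homologous recombination and the Fanconi pathway, many of them expressed in S phase, had 24 of 39 lower and none higher (median -0.68), with 18 to 30 lower over all alternatives. Within full serum none passed, but 7 were higher with the replicate block. MND1, a partner of strand exchange in meiosis, had a difference of -1.91 (adjusted p = 4.15e-05), the exonuclease EXO1 one of -2.06 (adjusted p = 7.36e-05) and the checkpoint kinase CHEK1 one of -1.07 (adjusted p = 0.000111). Among 25 cyclins, kinases and inhibitors 8 were lower and 2 higher, with 5 to 11 lower over all alternatives. CDKN3, a phosphatase of cell cycle kinases, had a difference of -1.27 (adjusted p = 0.0022), and CDK2 one of -0.64 (adjusted p = 0.00433).

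CDKN1A, the p21 inhibitor of cyclin-dependent kinases and a target of p53, went against this trend. It was 509.6, 666 and 675 CPM in knockdown 10 libraries, against 225, 273 and 255 CPM in NTC libraries in stripped serum, with no overlap. In full serum the level was 127, 126 and 178 CPM in shSIRT1 libraries, against 217, 212 and 179.7 CPM in NTC libraries, so that the groups nearly met at the libraries numbered 3. The log2 change was 1.34 in stripped serum (adjusted p = 3.83e-05) and -0.49 in full serum (adjusted p = 0.0893), with a difference of 1.83 (95% interval 1.39 to 2.28, adjusted p = 0.000278). Its change in full serum passed without both libraries 3 (adjusted p = 0.00478) and without shSIRT1 library 3 alone (adjusted p = 0.00844). Of 30 p53 targets, 8 had a higher knockdown change in stripped serum and 1 a lower one (median 0.23), with 3 to 14 higher over all alternatives. The replicate block called 7 lower in full serum. FDXR, a mitochondrial reductase, had a difference of 0.57 (adjusted p = 0.00282). RRM2B, a ribonucleotide reductase subunit, was called in opposite directions, at 0.21 in stripped serum (adjusted p = 0.00591) and -0.22 in full serum (adjusted p = 0.0304). That full serum call was lost without shSIRT1 library 2 (adjusted p = 0.159) or 3 (0.0659) and without NTC library 1 (0.0967) or 2 (0.16). The lower member was the kinase PLK2, at -0.86 (adjusted p = 0.00248).

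MYC, the transcription factor of growth genes, was 98.1, 92.2 and 105 CPM in knockdown 10 libraries, against 152, 145 and 165 CPM in NTC libraries in stripped serum. In full serum it was 235, 234 and 284 CPM in shSIRT1 and 233, 226 and 255 CPM in NTC libraries, which overlapped. The difference was -0.68 (95% interval -0.93 to -0.44, adjusted p = 0.00122). Among 41 MYC targets and ribosome biogenesis genes 16 were lower and none higher (median -0.30), or 31 lower with the replicate block and 2 under the 1.2-fold minimum. In stripped serum 33 of them fell and in full serum none passed, although the block called 3 higher and 5 lower there. IPO4, an importin, had a difference of -0.77 (adjusted p = 0.00157) and FBL, the methylase fibrillarin, one of -0.48 (adjusted p = 0.00195). None of 76 cytosolic ribosomal protein genes passed in edgeR (median -0.10), whereas the replicate block called 14 lower and 2 higher.

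**Figure D3:**
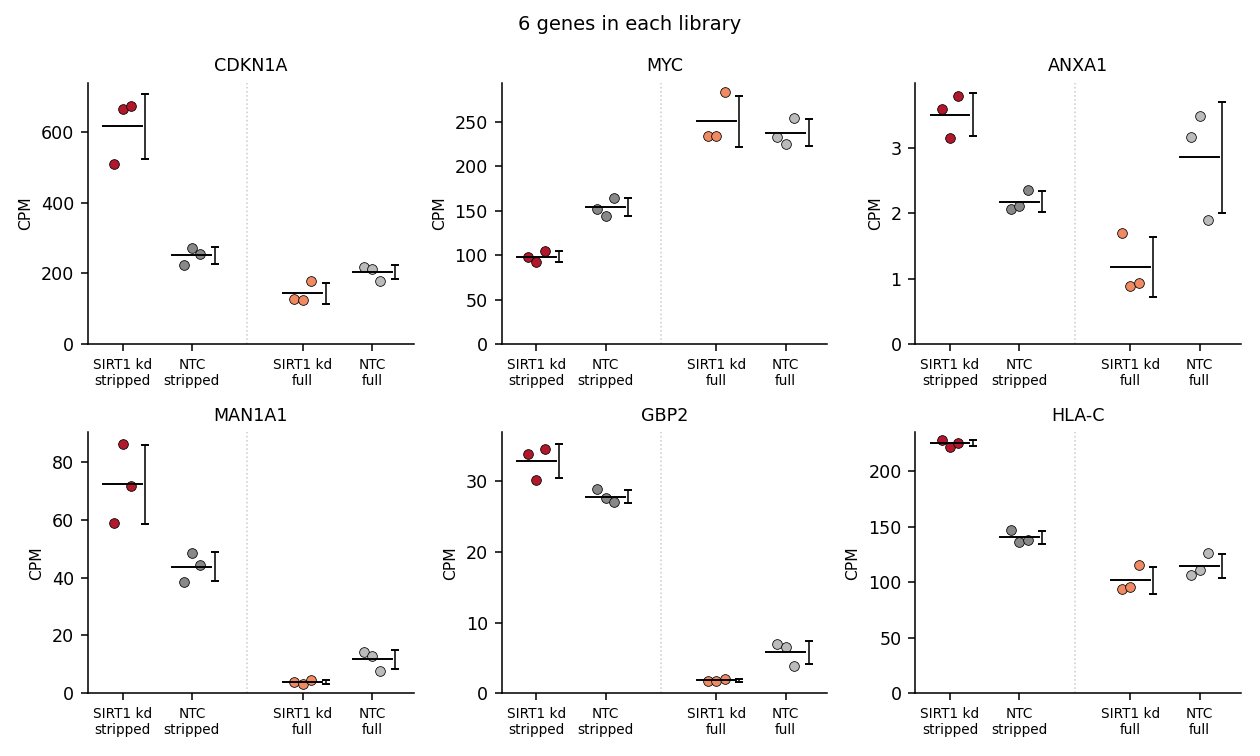
CPM of CDKN1A, MYC, ANXA1, MAN1A1, GBP2 and HLA-C in each library, with knockdown left of NTC and stripped serum left of full serum; points are libraries, horizontal bars means and vertical bars SD (n = 3). Knockdown 10 libraries lie above their NTC libraries for every gene but MYC, while shSIRT1 libraries lie below NTC libraries or overlap them.

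In the fit behind the calls here, the called genes of antigen presentation and interferon signalling all had a higher knockdown change in stripped serum. Of 20 MHC class I genes, 6 were higher and none lower (median 0.46), with 5 to 10 higher over all alternatives. In full serum none passed, but the replicate block called 5 lower. HLA-C, a class I heavy chain, was 228, 222 and 225 CPM in knockdown 10 libraries, against 147, 136 and 138 CPM in NTC libraries. Full serum levels were 93.7, 95.8 and 116 CPM in shSIRT1 and 106, 111 and 126 CPM in NTC libraries. Those groups overlapped, but in each of the 3 pairs of same-numbered libraries the shSIRT1 library was the lower one, and the full serum change of -0.16 (adjusted p = 0.321) was called with the replicate block (adjusted p = 0.0188). Its difference was 0.89 (adjusted p = 0.000187), with the reservation that reads may be shared among class I genes. TAP1, the peptide transporter, had a difference of 0.69 (adjusted p = 0.000355) and TAPBP, which links it to class I molecules, one of 0.58 (adjusted p = 0.000575).

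Of 45 interferon-stimulated genes, 15 were higher and none lower (median 0.40), with 6 to 19 higher over all alternatives. Up to 3 were lower in those: 1 with the replicate block, 2 without both full serum libraries 3 and 3 with both settings. In stripped serum 16 rose and 4 fell in knockdown cells, and in full serum 7 fell and none rose. GBP2, a guanylate-binding protein, was 33.8, 30.1 and 34.6 CPM in knockdown 10 libraries and 28.9, 27.6 and 27.1 CPM in NTC libraries in stripped serum. The full serum levels were 1.78, 1.67 and 2.02 CPM in shSIRT1 libraries, against 6.91, 6.5 and 3.9 CPM in NTC libraries. Its change was thus called in full serum (log2 -1.66, adjusted p = 0.000265) and not in stripped serum (log2 0.28, adjusted p = 0.0516, or 0.00255 with the replicate block). The difference was 1.94 (adjusted p = 0.000149). IFI35 and IFIT2, both induced by interferon, were called in opposite directions. IFI35 had a log2 change of 0.58 in stripped serum (adjusted p = 0.000412) and -0.75 in full serum (adjusted p = 0.0185), and its full serum call was lost without shSIRT1 library 1 or 2 or NTC library 2 (adjusted p = 0.0775, 0.105 and 0.054). IFIT2 was 14.1, 14.7 and 14 CPM in knockdown 10 libraries, against 10.4, 12.7 and 11.1 CPM in NTC, and 3.16, 2.9 and 3.36 CPM in shSIRT1 libraries, against 5.49, 4.95 and 5.35 CPM in NTC (difference 1.11, adjusted p = 0.000575). IFIT1, its neighbour in function, had a difference of 1.11 (adjusted p = 0.00386).

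Among 21 NF-κB targets 6 were higher and none lower (median 0.27). With the replicate block 10 were higher, while scaling within each set left 3 and summing full serum libraries 1 and 2 left 2. BIRC3, an inhibitor of apoptosis, was 97.1, 84.8 and 92.2 CPM in knockdown 10 libraries, against 80.4, 67.2 and 66.3 CPM in NTC, and 7.12, 8.54 and 8.79 CPM in shSIRT1 libraries, against 13.6, 11.7 and 12.7 CPM in NTC. It was called in opposite directions, with a difference of 1.04 (adjusted p = 0.000575). Its full serum call was lost without shSIRT1 library 1 (adjusted p = 0.0723) or NTC library 1 (0.0692). RELB, an NF-κB subunit, had a difference of 1.196 (adjusted p = 0.00475). Of 30 immediate early genes 7 were higher and 2 lower, or 12 and 2 with the block. JUNB, an AP-1 subunit, had a difference of 0.82 (adjusted p = 0.000715) and DUSP2, a MAP kinase phosphatase, one of 1.15 (adjusted p = 0.00131).

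The called lysosome and histone genes, and most of the called epithelial genes, also had a higher knockdown change in stripped serum. Of 42 autophagy and lysosome genes 14 were higher and none lower (median 0.22), or 23 higher with the replicate block and 3 under the 1.2-fold minimum. At most 1 was lower over all alternatives. CTSD, the protease cathepsin D, was 295, 329.9 and 335 CPM in knockdown 10 libraries, against 208, 238 and 253 CPM in NTC (difference 0.78, adjusted p = 0.000915). ATP6V0D1, a subunit of the proton pump, had a difference of 0.56 (adjusted p = 0.00229) and CTSB, cathepsin B, one of 0.39 (adjusted p = 0.00469). Of 34 epithelial genes 10 were higher and 2 lower (median 0.18), with 3 to 13 higher over all alternatives. The keratin KRT8 was 714, 713 and 699 CPM in knockdown 10 libraries, against 513, 534 and 548 CPM in NTC, and its difference was 0.50 (adjusted p = 0.00053). OCLN, the tight junction protein occludin, had one of 0.53 (adjusted p = 0.00131). Of 27 replication-dependent histone genes 7 were higher and none lower (median 0.48), with 2 to 12 higher and at most 1 lower over all alternatives. HIST1H2BK, at 0.67 (adjusted p = 0.000826), and HIST1H2AC, at 0.84 (adjusted p = 0.0011), are near-identical to other histone genes and may share reads with them. The libraries were made from poly(A) RNA, so histone RNA without a poly(A) tail is largely missing from these counts.

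Among metabolic lists, fatty acid synthesis had the largest share of members called lower. Of its 25 genes 6 were lower and 1 higher (median -0.22), with 2 to 11 lower over all alternatives, and the block called 3 higher. FADS2, the desaturase that starts the synthesis of long polyunsaturated fatty acids, was 129, 108 and 123 CPM in knockdown 10 libraries, against 354, 333 and 378 CPM in NTC. In full serum the level was 449, 448 and 383 CPM in shSIRT1 libraries, against 477, 473 and 511 CPM in NTC, and the difference was -1.34 (adjusted p = 7.34e-06). Its partner FADS1 fell in both sera, by more in stripped serum (difference -0.64, adjusted p = 0.00034). Of 37 hypoxia and glycolysis genes 4 were lower and 3 higher, or 12 and 6 with the block. HK2, the hexokinase, was 12.2, 15.6 and 13.3 CPM in knockdown 10 libraries, against 30.1, 28.8 and 31.8 CPM in NTC (difference -1.03, adjusted p = 8.12e-05), and LDHA, lactate dehydrogenase, had a difference of -0.70 (adjusted p = 0.00791). In 55 respiratory chain genes none was higher and 1 lower, or 4 and 3 with the block. Of 27 genes of PGC-1 and fatty acid oxidation 3 were higher and 2 lower, or 11 and 2 with the block. Of 23 cholesterol synthesis genes 1 was higher and 1 lower, against 3 and 6 with the block and 2 and 8 without both full serum libraries 3. The desaturase SC5DL was the higher one (0.49, adjusted p = 0.000815). INSIG1, which holds back the sterol-sensing factor SREBP, was the lower one (-0.55, adjusted p = 0.0106, or 0.0849 with the block). Of 16 polyamine genes 1 was higher and 2 lower, or 3 and 5 with the block, and MTAP, which salvages methionine, had a difference of -0.50 (adjusted p = 0.000914).

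In stripped serum 16 of 34 tested genes of the integrated stress response rose and 3 fell. The difference was called for 2 only, both higher (7 higher and 1 lower with the block). They were the amino acid transporter subunit SLC3A2 (0.46, adjusted p = 0.0157) and the transcription factor CEBPG (0.41, adjusted p = 0.0171, or 0.0601 without both full serum libraries 3). Of 32 genes of the unfolded protein response 2 were higher and 4 lower, or 6 and 4 with the block, and the secreted factor MANF had a difference of -0.38 (adjusted p = 0.00376). Among 22 FOXO targets 3 were higher and none lower, or 5 and 2 with the block, and GADD45A, a growth arrest gene, had a difference of 0.67 (adjusted p = 0.00909). Of 28 targets of other nuclear receptors 3 were higher and 2 lower, or 4 and 4 with the block, and the phosphatase DUSP1 had a difference of 0.70 (adjusted p = 0.00313). In the insulin-like growth factor axis 3 of 10 were higher and 1 lower, or 4 and 3 with the block. IGFBP2, a binding protein, was 36.5, 31.1 and 38.3 CPM in knockdown 10 libraries and 30.1, 29.7 and 34.9 CPM in NTC libraries in stripped serum. In full serum IGFBP2 was 53.4, 49 and 56.3 CPM in shSIRT1 libraries, against 72, 68.3 and 65.8 CPM in NTC (difference 0.58, adjusted p = 0.00524).

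Of 19 sirtuin and NAD genes 2 were higher, SIRT1 and SIRT2, and 2 lower, NNMT and PARP1. PARP1, a polymerase that consumes NAD in DNA repair, had a difference of -0.33 (adjusted p = 0.0343). NNMT, which methylates nicotinamide, held 12 counts over the knockdown 10 libraries, against 39 over NTC libraries in stripped serum (difference -2.02, adjusted p = 0.00641). Of 27 DNA methylation and heterochromatin genes 8 were lower and 1 higher, with 2 to 12 lower over all alternatives. HELLS, a chromatin remodeller, was 3.71, 4.2 and 3.85 CPM in knockdown 10 libraries, against 8.11, 8.96 and 10.3 CPM in NTC (difference -1.44, adjusted p = 0.00135), and EZH2, the histone methylase of Polycomb, had a difference of -0.64 (adjusted p = 0.00743). Of 24 imprinted genes 3 were higher and 4 lower, or 4 and 7 with the block, and MEST, a hydrolase-like protein, had a difference of -0.92 (adjusted p = 0.000578). Of 30 SRF and YAP targets 4 were higher and 3 lower, or 7 and 4 with the block. ACTA2, smooth muscle actin and also 1 of the fibroblast markers, was 2.98, 4.24 and 3.68 CPM in knockdown 10 libraries and 2.33, 2.97 and 3.25 CPM in NTC libraries in stripped serum. In full serum ACTA2 was 4.1, 5.24 and 5.38 CPM in shSIRT1 libraries, against 11.5, 9.97 and 9.28 CPM in NTC, with no overlap (difference 1.45, adjusted p = 0.00102). Of 16 mesenchymal genes the matrix protein FN1 was higher (1.21, adjusted p = 0.0134, or 0.0562 with the block) and THBS1 lower. In full serum FN1 was 178, 176 and 188 CPM in shSIRT1 libraries, against 457, 445 and 248 CPM in NTC, where library 3 was the low one. Of 16 neuroendocrine genes none was higher and 2 lower, or 3 with the block. One of them, STMN1, encodes a microtubule destabiliser that dividing cells also express (-1.25, adjusted p = 0.000358). Among 12 LNCaP identity genes KRT8 was higher and KLK2 lower.

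**Figure D4:**
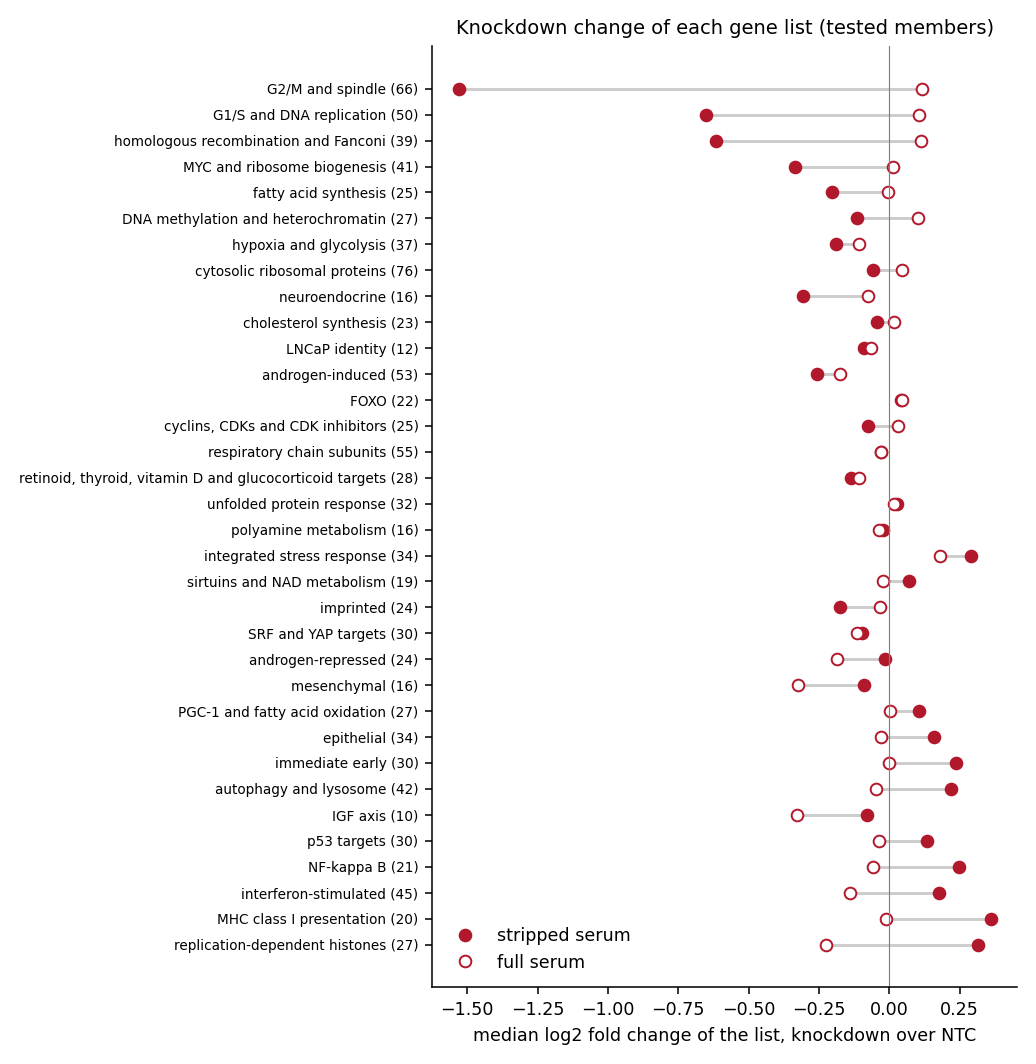
Median log2 fold change of knockdown over NTC for the gene lists described here that have at least 10 tested members (number in brackets), in stripped serum (filled) and full serum (open), ordered by the median difference. G2/M genes have a median of -1.53 in stripped serum and 0.12 in full serum, and histone, MHC class I and interferon-stimulated genes have positive medians in stripped serum and medians of -0.22, -0.01 and -0.14 in full serum.

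Androgen-regulated genes divided. KLK3, which encodes prostate-specific antigen, fell by nearly the same log2 change in both sera although its level was far apart. It was 6.41, 4.86 and 6.47 CPM in knockdown 10 libraries, against 23.9, 23.7 and 27.8 CPM in NTC, and 103, 101 and 90.6 CPM in shSIRT1 libraries, against 434, 431 and 268 CPM in NTC. The changes were -2.04 in stripped serum (adjusted p = 5.04e-05) and -1.94 in full serum (adjusted p = 0.000173), with a difference of -0.10 (95% interval -0.70 to 0.50, adjusted p = 0.863).

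KLK2, the neighbouring kallikrein gene, differed. It was 2.31, 2.12 and 3.02 CPM in knockdown 10 libraries, against 7.68, 5 and 7.43 CPM in NTC. In full serum it was 170.4, 166 and 155 CPM in shSIRT1 and 152, 163 and 209 CPM in NTC libraries, which overlapped. The difference was -1.31 (SE 0.25, adjusted p = 0.00548). KLK4, of the same family, was 16.6, 15.9 and 17.8 CPM in knockdown 10 libraries, against 25.7, 24.6 and 28.1 CPM in NTC, with a difference of -0.69 (adjusted p = 0.00131) and KCNN2, a calcium-activated potassium channel, one of -1.12 (adjusted p = 8.43e-06). Both changed in stripped serum alone. TMPRSS2, a membrane protease, was 35.4, 32.5 and 33.2 CPM in knockdown 10 libraries, against 53.5, 44.6 and 49.4 CPM in NTC, and 366, 357 and 422 CPM in shSIRT1 libraries, against 360.4, 339 and 574 CPM in NTC. Its difference of -0.35 did not pass (adjusted p = 0.424), but it was -0.59 without both full serum libraries 3 (adjusted p = 0.00108) and -0.64 without NTC library 3 alone (adjusted p = 0.00216). FKBP5, a co-chaperone of steroid receptors, was 34.5, 32 and 33.1 CPM in knockdown 10 libraries, against 53.1, 51.4 and 55.5 CPM in NTC, and 221, 222 and 127 CPM in shSIRT1 libraries, against 186, 188 and 129 CPM in NTC. The FKBP5 change in stripped serum passed (log2 -0.64, adjusted p = 0.0471), but not when any single stripped serum library was left out (adjusted p up to 0.127). The FKBP5 difference of -0.83 did not pass (adjusted p = 0.103), whereas it did with the replicate block (-0.81, adjusted p = 2.33e-07), without both libraries 3 (-0.93, adjusted p = 1.35e-06) and without shSIRT1 library 3 alone (-1.05, adjusted p = 0.00206).

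**Figure D5:**
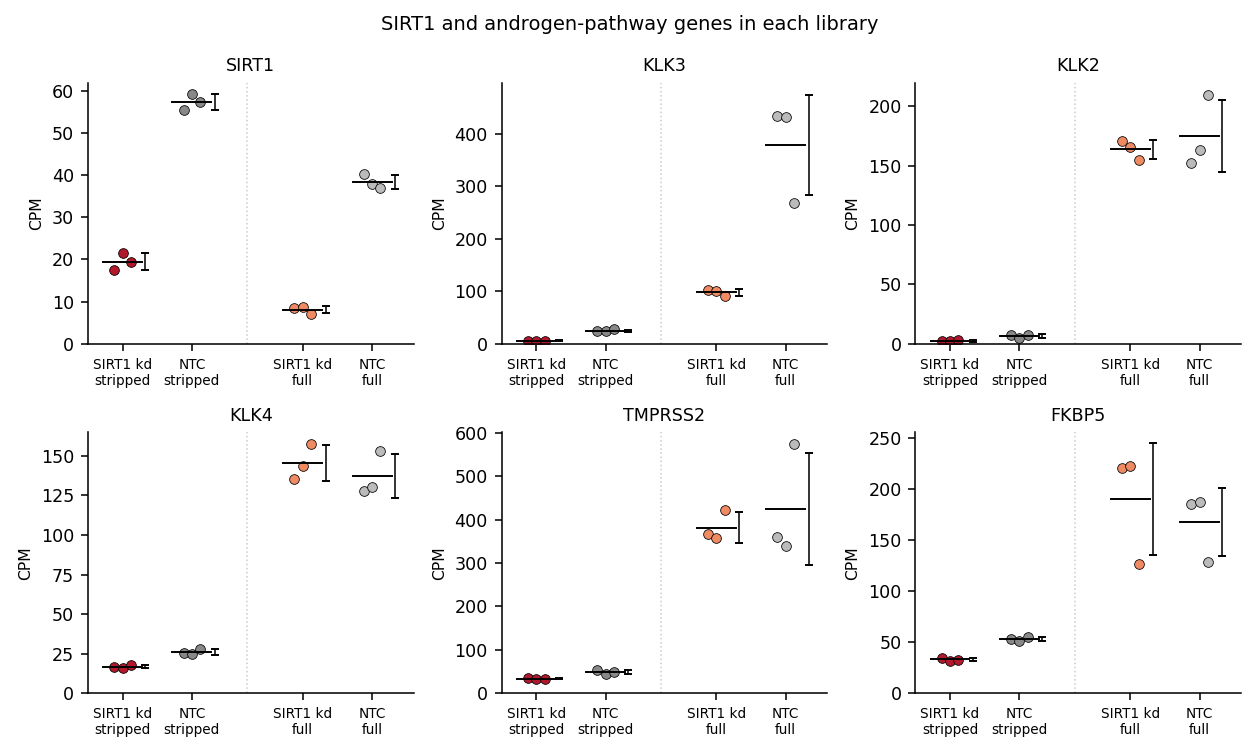
CPM of SIRT1, KLK3, KLK2, KLK4, TMPRSS2 and FKBP5 in each library, with knockdown left of NTC and stripped serum left of full serum; points are libraries, horizontal bars means and vertical bars SD (n = 3). SIRT1 and KLK3 are lower in knockdown than NTC libraries in both sera, and KLK2, KLK4, TMPRSS2 and FKBP5 in stripped serum. FKBP5 in full serum library 3 is far below libraries 1 and 2 in both groups.

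Over the 53 androgen-induced genes tested, 6 had a higher and 7 a lower knockdown change in stripped serum (median -0.05). The counts were 13 and 12 with the replicate block, and 9 and 14 without both full serum libraries 3. More of them fell than rose in both sera, 15 against 4 in stripped serum and 14 against 1 in full serum. With the replicate block these counts were 24 against 9 in stripped serum and 22 against 4 in full serum. NDRG1, a stress-linked growth regulator, fell in full serum alone (log2 -0.82, adjusted p = 0.000208; difference 0.76, adjusted p = 0.00191). ADAMTS1, a secreted metalloprotease, did so too (log2 -0.45, adjusted p = 0.000604; difference 0.49, adjusted p = 0.0018). Of 24 androgen-repressed genes 2 were higher and 2 lower, or 5 and 5 with the block. The lower ones were SLITRK3, a synaptic adhesion protein, at -1.30 (adjusted p = 1.89e-05), and OPRK1, the kappa opioid receptor, at -2.05 (adjusted p = 0.00017). OPRK1 was 7.35, 7.31 and 9.12 CPM in knockdown 10 libraries, against 29.1, 31.7 and 40.9 CPM in NTC, and 5.98, 5.29 and 4.86 CPM in shSIRT1 libraries, against 4.63, 4.75 and 6.97 CPM in NTC.

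The 6 opposite genes with the largest differences, at a mean of at least 1 on the log2 CPM scale, all rose in stripped serum and fell in full serum. LRRC7, a scaffold protein of synapses, was 2.16, 3.54 and 3.09 CPM in knockdown 10 libraries, against 1.36, 2.32 and 1.86 CPM in NTC, and 0.162, 0.161 and 0.168 CPM in shSIRT1 libraries, against 1.97, 1.53 and 1.18 CPM in NTC. The stripped serum groups overlapped, and the 3 shSIRT1 libraries held 6 counts in all, so that its difference of 3.92 (SE 0.54, adjusted p = 0.00027) is imprecise. MAN1A1, a mannosidase of the Golgi, was 59, 86.1 and 71.5 CPM in knockdown 10 libraries, against 38.5, 48.5 and 44.5 CPM in NTC, and 3.81, 3.06 and 4.71 CPM in shSIRT1 libraries, against 14.3, 12.9 and 7.79 CPM in NTC (difference 2.37, adjusted p = 0.000915). Neither pair of MAN1A1 groups overlapped.

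HSPB8, a small heat shock protein, had a log2 change of 0.52 in stripped serum (adjusted p = 0.00461) and -1.72 in full serum (adjusted p = 0.000529), with a difference of 2.25 (adjusted p = 0.000129). ALPK2, an alpha kinase, had one of 1.21 in stripped serum and -1.005 in full serum (difference 2.22, adjusted p = 0.000227). C5orf4, for which no role is given here, had a difference of 2.08 (adjusted p = 0.000535). ANXA1, a phospholipid-binding annexin that dampens inflammation, was 3.58, 3.14 and 3.78 CPM in knockdown 10 libraries, against 2.06, 2.11 and 2.35 CPM in NTC, and 1.7, 0.884 and 0.925 CPM in shSIRT1 libraries, against 3.17, 3.49 and 1.89 CPM in NTC (difference 2.01, adjusted p = 0.00154). For all 6 the difference itself passed under every one of the 28 alternatives. Their calls within a serum were less stable when single libraries were left out: 9 of 12 such fits lost the full serum call of C5orf4 (adjusted p up to 0.177), 4 that of ANXA1 (up to 0.0924) and 1 that of ALPK2 (0.0692, without NTC library 1). In stripped serum 4 lost the call of LRRC7 (up to 0.112) and 1 that of ANXA1 (0.0525, without knockdown 10 library 3).

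The following genes led their kind by the size of the difference among those with a mean of at least 1 on the log2 CPM scale. Among genes that changed in stripped serum alone, ST8SIA4, a polysialyltransferase, had the lowest difference. It was 0.987, 1.45 and 1.62 CPM in knockdown 10 libraries, against 7.07, 11.7 and 12.6 CPM in NTC, and 5.25, 4.65 and 5.77 CPM in shSIRT1 libraries, against 4, 3.97 and 4.14 CPM in NTC (difference -3.28, adjusted p = 2.61e-05). ITPRIPL2, a membrane protein, was at -2.85 (adjusted p = 0.000227) and the imprinted zinc finger gene ZIM2, which shares exons and so perhaps reads with PEG3, at -2.25 (adjusted p = 0.00576). ITPRIPL2 rests on 14 counts over the knockdown 10 libraries, against 109 over NTC, and did not pass on the scale of log2(TPM + 1) (adjusted p = 0.27). IGFBP3, a binding protein of insulin-like growth factors, was 343, 377 and 416 CPM in knockdown 10 libraries, against 122, 156 and 131 CPM in NTC. Full serum levels were 7.53, 6.83 and 5.97 CPM in shSIRT1 libraries, against 16.5, 16.1 and 3.7 CPM in NTC, where library 3 was the low one. Its difference of 2.36 (adjusted p = 0.0183) was lost without shSIRT1 library 2 (adjusted p = 0.0556), NTC library 1 (0.0621) or NTC library 2 (0.0587), and was 2.66 without both libraries 3 (adjusted p = 2.72e-06).

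GRIN3A, a glutamate receptor subunit, was 17.1, 13.6 and 19 CPM in knockdown 10 libraries, against 4.55, 2.79 and 3.06 CPM in NTC (difference 2.63, adjusted p = 0.00735). REG4, a secreted lectin-like protein, was 11.2, 6.98 and 6.74 CPM in knockdown 10 libraries, against 2.29, 2.25 and 1.86 CPM in NTC. In full serum it held 3 counts over the shSIRT1 libraries, against 9 over NTC. Its difference of 3.37 (adjusted p = 0.0261) was lost without both full serum libraries 3 (adjusted p = 0.0679), shSIRT1 library 2 (0.0742), NTC library 1 (0.107) or NTC library 2 (0.07). FBXO22OS, LOC728758, IL21R, LOC170425 and GRIN1 also fell under the naming rule, but none had more than 12 counts in any stripped serum library while all had at least 76 in each full serum library. They are left in the counts. Symbols that mark antisense or opposite-strand transcripts stood 1.33 log2 units higher in NTC cells in full serum than in stripped serum (median of 82), against 0.11 for the other 15263 genes, and whether both sets were counted by strand is not given in the sources used here. The difference was called for 4 of those 82.

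In full serum alone, ANTXR1, an anthrax toxin receptor of the cell surface, rose: it was 14.2, 16.5 and 13.6 CPM in shSIRT1 libraries, against 5.49, 6.62 and 9.44 CPM in NTC. In stripped serum it was 17.1, 17.6 and 18.7 CPM in knockdown 10 libraries, against 21.7, 21.7 and 23.9 CPM in NTC, which did not pass (adjusted p = 0.0682, or 0.0117 with the replicate block). The difference was -1.34 (adjusted p = 0.000345). FAM189A1, a membrane protein, had a difference of -1.35 (adjusted p = 0.0116). GCG, CLU, CRYAB, PCDHGA12 and LRRTM3 fell under the naming rule too, but lost the call of the difference when single libraries were left out, and stay in the counts. REG4 and IGFBP3 lost it in some such fits as well, and are described above with those values.

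Among genes that changed the same way by different amounts, FAM65B, an inhibitor of the small GTPase RhoA, had the lowest difference. It was 0.425, 0.132 and 0.398 CPM in knockdown 10 libraries, against 11.4, 15.6 and 15.8 CPM in NTC, and 5.18, 5.2 and 4.96 CPM in shSIRT1 libraries, against 12.4, 9.92 and 12 CPM in NTC (difference -4.25, adjusted p = 7.17e-06). THBS1, the matrix protein thrombospondin-1, was 0.182, 0.0993 and 0.199 CPM in knockdown 10 libraries, against 7.58, 8.61 and 7.8 CPM in NTC, and 2.84, 2.83 and 3.05 CPM in shSIRT1 libraries, against 26.4, 27.9 and 12.2 CPM in NTC (difference -2.61, adjusted p = 0.0104). The sign of that difference turned on the scale of log2(TPM + 1), where it was 0.40 by limma-trend (adjusted p = 0.431). The non-coding RNA NCRNA00086 was at -2.13 (adjusted p = 0.00576), although 6 of the 12 fits without 1 library lost its full serum call (adjusted p up to 0.151), and PAGE1, a cancer-testis antigen, at -1.84 (adjusted p = 0.0025). ADRA2A, an adrenergic receptor, fell by less in stripped serum (log2 -0.59, against -2.43 in full serum; difference 1.84, adjusted p = 0.00264), and 4 of those 12 fits lost its stripped serum call (adjusted p up to 0.108). LIN7A, a scaffold protein of cell junctions, rose in both sera, by more in stripped serum (log2 1.13, against 0.43 in full serum; difference 0.71, adjusted p = 0.000978). GSTA1 (difference 1.01, adjusted p = 0.0184) fell under the naming rule too and stays in the counts.

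Shared changes were led by genes that fell. PDE10A, a phosphodiesterase of cyclic nucleotides, was 27.6, 28 and 26.1 CPM in knockdown 10 libraries, against 72.1, 73 and 69.3 CPM in NTC, and 26.3, 23.4 and 24.6 CPM in shSIRT1 libraries, against 60.6, 60.7 and 57 CPM in NTC. The changes were -1.35 in stripped serum (adjusted p = 8.97e-10) and -1.26 in full serum (adjusted p = 2.71e-08), and the 95% interval of the difference ran from -0.28 to 0.10. MAST4, a kinase that binds microtubules, changed by -1.23 in stripped serum and -1.34 in full serum (interval of the difference -0.10 to 0.33). The monoglyceride lipase MGLL changed by -0.97 and -1.02 in the same order of sera (interval -0.29 to 0.38), the zinc-binding glycoprotein gene AZGP1 by -0.97 and -0.95 (interval -0.56 to 0.52), and the synaptic vesicle gene SYNGR1 by -0.84 and -0.95 (interval -0.30 to 0.53). NR3C2, the mineralocorticoid receptor, rose in both. It was 26.4, 35.8 and 36.7 CPM in knockdown 10 libraries, against 14.1, 21.2 and 22.3 CPM in NTC, and 42.7, 39.1 and 40.5 CPM in shSIRT1 libraries, against 23.7, 23.7 and 21.8 CPM in NTC, with changes of 0.82 in stripped serum and 0.83 in full serum (interval -0.47 to 0.46). Without both full serum libraries 3 its full serum change did not pass (adjusted p = 0.0892).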

How the data were processed

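RNA was measured by stranded poly(A) RNA-seq (TruSeq libraries, Illumina HiSeq). The authors deposited RSEM expected counts and TPM per gene, made with CASAVA 1.8.2, RSEM 1.2.31 and hg19, per the submitters' processing notes. The aligner, annotation and strand setting are not given in the sources used here. RSEM had removed 224 to 234 bases from each transcript's length in the stripped serum set and 50 bases in the full serum set, as the deposited effective lengths show, which bears on TPM and on how counts were assigned.

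Expected counts, as deposited, were rounded. Genes were filtered with filterByExpr (15345 of 23207 kept), scaled by TMM (factors 0.932 to 1.05) and tested over 12 libraries with edgeR 4.0.16 (R 4.3.3, limma 3.58.1) by the robust quasi-likelihood test on the contrast of the 2 knockdown changes and on each change. Calls have a Benjamini-Hochberg adjusted p under 0.05 over all genes tested. Intervals are 95% intervals from the fit. The common biological coefficient of variation was 7.55%. P-values measure the spread between libraries, which may be technical, since the labels do not say whether they came from separate cultures. DESeq2 1.42.0, voom, limma-trend on log2(TPM + 1) from the deposited TPM, other filters and scalings, all 24 libraries, thinning of the deeper set and leaving out each library were alternatives.

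Same-numbered libraries deviated together from their group means (correlations 0.55, 0.47 and 0.27 in stripped serum and 0.35, 0.30 and 0.58 in full serum, over 10351 genes). The fit behind the calls and kinds above had group means only and did not pair the libraries by number. The replicate block, which does, was an alternative, and counts from it are given beside those calls because many of them move with it. The labels give the number and no reason for it.

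Named genes were a fixed set (SIRT1, KLK3, KLK2, TMPRSS2, FKBP5, MYC, CDKN1A, MKI67), the largest differences of each kind at a mean log2 CPM of at least 1, the 6 shared genes with the largest smaller change, and up to 4 members per gene list with the lowest adjusted p. The G2/M genes that did not pass and CKAP2L, shown for its promoter, were added after their values were seen. One gene of the fixed set and 1 gene list are not reported here. Genes and lists were chosen with earlier results of these data known.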

Additional observations from a re-analysis of the deposited data

Results flagged for a closer look

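The test of the difference itself, edgeR's quasi-likelihood test with Benjamini-Hochberg adjustment, found a knockdown change that differed between stripped and full serum for 2104 genes. The values below are the knockdown change in stripped serum minus that in full serum on the log2 scale, and their adjusted p stand beside the genes above. A negative value means a change that was lower in stripped serum. Serum, run, read depth, counting settings, the size of the SIRT1 fall and the naming of the hairpin differ together between the sets. They cannot be told apart.

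The named G2/M genes had a lower change in stripped serum, with KIF14 at -2.25, MKI67 at -1.99, TTK at -1.93, KIF4A at -1.84, BUB1 at -1.65, CCNB2 at -1.62 and CKAP2L at -1.61. So had those named from the G1/S, repair and cyclin and kinase lists, with UHRF1 at -2.22, EXO1 at -2.06, DTL at -2.05, MND1 at -1.91, CDC45 at -1.67, CDKN3 at -1.27, CHEK1 at -1.07, MCM3 at -0.93 and CDK2 at -0.64. In the heterochromatin and neuroendocrine lists the named values were HELLS at -1.44, STMN1 at -1.25 and EZH2 at -0.64. The growth genes MYC, IPO4 and FBL belong here, with IPO4 at -0.77, MYC at -0.68 and FBL at -0.48. In metabolism and protein folding the values were lower for FADS2 at -1.34, HK2 at -1.03, LDHA at -0.70, FADS1 at -0.64, INSIG1 at -0.55, MTAP at -0.50 and MANF at -0.38. Androgen-regulated genes were lower for OPRK1 at -2.05, KLK2 at -1.31, SLITRK3 at -1.30, KCNN2 at -1.12 and KLK4 at -0.69. Other genes with a lower change were FAM65B at -4.25, ST8SIA4 at -3.28, ITPRIPL2 at -2.85, THBS1 at -2.61, ZIM2 at -2.25, NCRNA00086 at -2.13, NNMT at -2.02, PAGE1 at -1.84, FAM189A1 at -1.35, ANTXR1 at -1.34, MEST at -0.92 and PLK2 at -0.86.

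Single sirtuin, p53 and FOXO target genes with a higher change were CDKN1A at 1.83, SIRT1 at 0.73, GADD45A at 0.67, FDXR at 0.57, SIRT2 at 0.47 and RRM2B at 0.44. From the interferon, MHC class I and NF-κB lists the named genes were GBP2 at 1.94, IFI35 at 1.33, RELB at 1.196, IFIT1 at 1.11, IFIT2 at 1.11, BIRC3 at 1.04, HLA-C at 0.89, TAP1 at 0.69 and TAPBP at 0.58. The named immediate early, stress and nuclear receptor target genes with a higher change were DUSP2 at 1.15, JUNB at 0.82, DUSP1 at 0.70, SLC3A2 at 0.46 and CEBPG at 0.41. Among lysosome, epithelial, histone and sterol genes the values were HIST1H2AC at 0.84, CTSD at 0.78, HIST1H2BK at 0.67, ATP6V0D1 at 0.56, OCLN at 0.53, KRT8 at 0.50, SC5DL at 0.49 and CTSB at 0.39. Matrix, growth factor and androgen-induced genes gave IGFBP3 at 2.36, ACTA2 at 1.45, FN1 at 1.21, NDRG1 at 0.76, IGFBP2 at 0.58 and ADAMTS1 at 0.49. The genes called in opposite directions with the largest differences gave LRRC7 at 3.92, MAN1A1 at 2.37, HSPB8 at 2.25, ALPK2 at 2.22, C5orf4 at 2.08 and ANXA1 at 2.01. The last ones were REG4 at 3.37, GRIN3A at 2.63, ADRA2A at 1.84 and LIN7A at 0.71.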

How the results depend on the processing

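The counts of differences kept within 1.5 times of 2104 under every other alternative (1449 to 2424 when single libraries were left out). The exceptions were 708 under the 1.2-fold minimum, 1131 with full serum libraries 1 and 2 summed, 4041 with the replicate block and 4108 with the block and without both full serum libraries 3, the last chosen after seeing the data. For changes within stripped serum (4884) these were 1576 under the 1.2-fold minimum and 7332 with the block and without both libraries 3, and leaving out single libraries gave 3666 to 5297. For changes within full serum (709) they were 153, 195, 1993 and 2215 in the same order of settings as for the difference, and leaving out single libraries gave 306 to 1106, the lowest without NTC library 2 and the highest without NTC library 3. It was 311 without NTC library 1, 359 without shSIRT1 library 1 and 365 without shSIRT1 library 2. Leaving out transcripts with antisense symbols, also chosen after seeing the data, gave 2106 differences. Scaling moved the median difference by under 0.1 on the log2 scale, but the share of higher calls among differences, 54.3%, was 42.7% with TMM within each set, 44.5% with library totals and 41.9% in the fit of all 24 libraries. In stripped serum that share was 55.5%, against 43.9% with TMM within each set. The cause was not tested.

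The THBS1 difference turned sign on log2(TPM + 1), at 0.40 by limma-trend. With the replicate block the difference was called for FKBP5 and NCAPD2 and no longer for FN1 and INSIG1. Within full serum it also called a higher level in knockdown cells (adjusted p in brackets) for FKBP5 (0.0309), CCNB2 (0.0167), MCM3 (0.0163), MND1 (0.0316), MEST (0.0357), HELLS (0.027), NCAPD2 (0.0282) and BUB3 (0.0188), and a lower one for FDXR (0.0321), IPO4 (0.0139), TAP1 (0.0139), RELB (0.0249), HIST1H2BK (0.0462) and GADD45A (0.0258). The full serum call of FN1 was lost (0.057). Within stripped serum it called a higher level for ACTA2 (0.0326) and IGFBP2 (0.00666) and a lower one for TMPRSS2 (0.0118) and NCAPD2 (4.61e-05). Beside the calls given with their results it changed no other call of a named gene.

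The full serum libraries, at 11.9 to 14.2 M counts, were the shallower ones. Thinning the stripped serum libraries left 1784 differences, and intervals of low genes such as LRRC7 cover counting error and the spread between 3 libraries only.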
